A study of Mus musculus with 22 samples.

Results

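The genes described here are 53 genes of the secretory pathway and the unfolded protein response. They were chosen by name from a list of pathway genes, with no threshold on a measured level, but with earlier results of these data known. Counts of called genes among them therefore describe the chosen list. All 53 are among the 24982 genes counted in each library, and all 53 passed the filter on low counts that left 12387 genes for testing. They were placed in 7 role groups: 9 sensors and regulators, 10 genes of the ER Hsp70 and Hsp90 chaperone cycle, 8 lectin chaperones, disulfide isomerases and prolyl isomerases, 9 translocon genes, 4 signal peptidase genes, 5 oligosaccharyltransferase genes and 8 genes of ER-associated degradation.

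The libraries are RNA-seq of eosinophils at maturation stages I to IV, sorted from mouse bone marrow. All donors were wild type, of the strain labelled C57BL6, and all had received IL-33, a cytokine that drives eosinophil expansion, at 400 ng intraperitoneally on each of 7 days. From the last of these injections, mice were given either anti-IL5 or an isotype antibody, 400 µg at each of 3 daily injections, so that both arms carry IL-33 treatment and no arm is free of it. Before sorting, cells carrying CD45R, NK1.1, CD90.2 or Ly6G were removed, and the gates used CD117, CD200R3, PIR-A/B, CD29, CD55, Siglec-F and F4/80, with a purity of 95% or more. Each arm holds 11 libraries, 3 per stage and 2 at stage II. The labels do not say which libraries came from 1 mouse or how many mice went into a sort, so a p-value below measures the spread between libraries, which may be technical.

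Proteins bound for granules, membranes or the outside of the cell enter the endoplasmic reticulum (ER) through the Sec61 channel, lose their signal peptide, receive N-linked glycans and are folded by chaperones and disulfide isomerases, while misfolded chains are sent back out for degradation. The unfolded protein response adjusts this machinery through the sensors IRE1 (Ern1), ATF6 and PERK (Eif2ak3), and IRE1 acts by splicing the mRNA of the transcription factor XBP1. In the eosinophil lineage, which loads its granules with large amounts of secretory protein, XBP1 is known to be required for development.

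Gene counts per library ran from 7161264 to 14781250, and 3 counts, the limit used for a gene with no count, correspond to 0.203 to 0.419 CPM (counts per 1000000 gene counts). Levels below are CPM on library sizes scaled by the trimmed mean of M values, fold changes are log2, and a gene is called where its Benjamini-Hochberg adjusted p over all 12387 genes is under 0.05 in edgeR's quasi-likelihood test. The eosinophil genes Siglecf, Il5ra, Adgre1 and Gata1 were above 0 in all 22 libraries, and Ccr3, the eotaxin receptor, had a mean of 4.89 CPM at isotype stage I and 2719 CPM at isotype stage IV. In bulk RNA of sorted cells, fewer cells of a type and less RNA per cell cannot be told apart.

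Secretory pathway transcripts were most abundant at stage I and became scarcer toward stage IV. In isotype libraries the 53 genes took a mean of 3.7% of all gene counts at stage I, 2.24% at stage II, 1.22% at stage III and 0.812% at stage IV. In anti-IL5 libraries these shares were 2.4%, 1.28%, 0.743% and 0.698%. Summed over the 53 genes, the isotype libraries held 28560, 33750 and 31610 CPM at stage I against 20320, 20220 and 20910 CPM in the anti-IL5 libraries. At stage II they held 19100 and 22170 CPM against 13060 and 11570 CPM. Every isotype sum lay above every anti-IL5 sum of its stage, also at stage III (12140, 13130 and 13350 CPM against 8628, 8558 and 7550 CPM) and stage IV (9176, 8842 and 9476 CPM against 8094, 8053 and 7728 CPM). Markers of some other cell types were also lower at the later stages, while those of others rose to stage III. In isotype libraries, 6 azurophil granule genes of early neutrophils summed to means of 4447, 515.9, 37.3 and 74.4 CPM at stages I to IV, with 6 of 6 lower at stage IV than at stage I. Basophil and mast cell genes summed to 1216, 488.5, 345 and 116.8 CPM (5 of 6 tested genes lower and 1 higher), and 4 progenitor genes, Kit and Cd34 among them, to 193, 66.55, 35.05 and 14.9 CPM (2 of 4 lower). Of all tested genes, 33.9% were called lower and 32.3% higher at isotype stage IV than at stage I. Mature neutrophil genes summed to 2489, 4620, 6318 and 1753 CPM at isotype stages I to IV, and monocyte genes to 847.7, 1456, 2162 and 1473 CPM. The part of all these cells in the fall of the secretory genes was not tested.

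**Figure D1:**
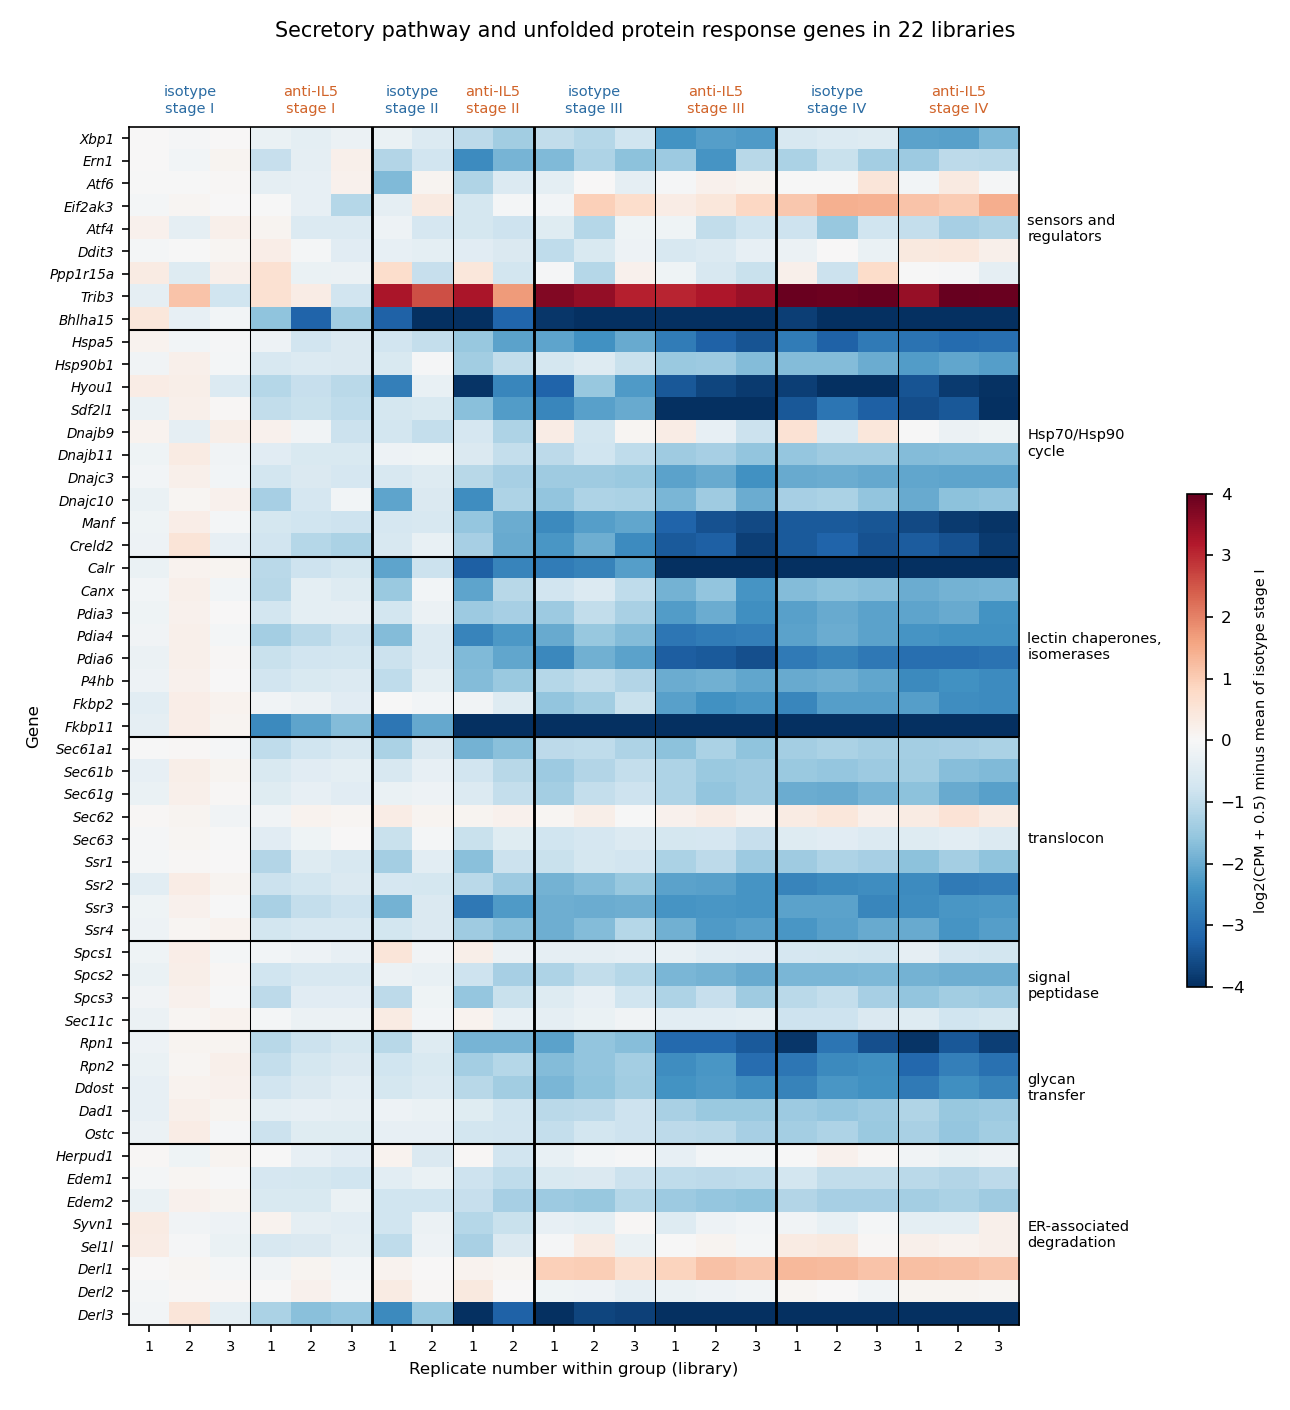
Each row is 1 of the 53 genes, grouped by role, and each column 1 of the 22 libraries; colour is log2(CPM + 0.5) minus the gene's mean on that scale over the 3 isotype stage I libraries, drawn up to 4 units either way. Most rows turn blue from left to right and are bluer in the anti-IL5 columns of stages I to III, while Trib3, Eif2ak3 and Derl1 turn red.

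Between stage I and stage IV, edgeR called 41 of the 53 genes lower and 4 higher in isotype libraries, where 33.9% of all tested genes were called lower and 32.3% higher. In anti-IL5 libraries 39 were lower and 5 higher, beside 32.8% and 30.7% of all genes. Libraries of stage IV lay below all libraries of stage I for 41 genes in isotype and 40 in anti-IL5 mice, beside 37.9% and 35.9% of all genes. The median log2 difference of the 53 genes was -1.5 in isotype and -1.16 in anti-IL5 libraries. Among role groups in isotype libraries, 9 of 10 chaperone-cycle genes, 8 of 8 lectin chaperones and isomerases, 8 of 9 translocon genes, 4 of 4 signal peptidase genes and 5 of 5 oligosaccharyltransferase genes fell. Only 4 of 9 sensors and regulators and 3 of 8 degradation genes did. The median of all genes moves by -0.42 between these stages when plain gene totals replace the scaled library sizes, to -0.462 in isotype libraries. On plain gene totals the small rise of Sec62 described below turns into a small fall, which still lies above that median.

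The fall was spread over the steps of maturation in isotype libraries, whereas under anti-IL5 few genes were called in the last step. From stage I to II, 18 genes were lower and 1 higher in isotype libraries (all genes 3.25% and 7.39%), and 21 and 1 in anti-IL5 libraries (5.16% and 7.27%). From stage II to III the counts were 29 lower and 2 higher with isotype antibody (18.1% and 19%), and 23 and 5 with anti-IL5 (19.7% and 19.8%). From stage III to IV, 27 genes were lower and 3 higher in isotype libraries (18.8% and 14.8%), but 4 were lower and 2 higher in anti-IL5 libraries (13.4% and 10.4%). The 4 were Hsp90b1 (-0.62), P4hb (-0.50), Sec61g (-0.53) and Ssr2 (-0.48), and the 2 were Ddit3 (0.85) and Sdf2l1 (0.67). Of these 6 genes, 2 were called whichever library was left out; 3 genes were called without anti-IL5 stage IV replicate 2 and 3 without its replicate 3, and a fit on these groups alone called 6 lower and 5 higher. The difference between the arms in this step, tested directly, was called for the 3 genes named with the stage comparisons of the treatment effect. The isotype count from stage I to II rests on few libraries: it was 8 without isotype stage I replicate 2 and 3 without isotype stage II replicate 1. On plain gene totals the split from stage II to III with anti-IL5 was 30 lower and 2 higher, and that from stage III to IV with isotype antibody 30 lower, with every call lower.

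Anti-IL5 lowered many of these genes at stages I to III and 1 at stage IV, and every call at these stages was toward a lower level. At stage I edgeR called 22 of 53 genes lower, where 1.82% of all genes were called lower and 2.61% higher. At stage II 19 were lower (1.19% and 0.565%), at stage III 20 (5.05% and 1.32%), and at stage IV only Xbp1 (0.864% and 0.186%). The libraries of both arms did not overlap, with anti-IL5 lower, for 34 genes at stage I, 34 at stage II, 30 at stage III and 13 at stage IV, beside 14%, 18.4%, 15.1% and 8.73% of all genes. They did not overlap with anti-IL5 higher for 2 genes at stage IV and for none at stages I to III, beside 7.08% of all genes at stage IV and 14.4%, 15.4% and 10.9% at stages I to III. The median log2 difference of the 53 genes was -0.6, -0.58, -0.46 and -0.11 at stages I to IV, and between -0.01 and 0.02 for all genes tested. With the effect averaged over stages, 33 genes were lower and the other 20 were not called (10.3% of all genes were called lower and 8.6% higher).

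The same 12 genes were lower at each of stages I, II and III: Hsp90b1, Sdf2l1, Dnajc3, Manf, Creld2, Calr, Pdia4, Pdia6, P4hb, Fkbp11, Spcs2 and Rpn1. They include ER chaperones and co-chaperones, protein disulfide isomerases, a signal peptidase subunit and a subunit of the oligosaccharyltransferase. The counts lean on single libraries at the first stages: at stage I the count was 9 without isotype replicate 2, 11 without anti-IL5 replicate 1 and 14 without anti-IL5 replicate 2, and at stage II it was 4 without isotype replicate 2, 8 without anti-IL5 replicate 1 and 7 without anti-IL5 replicate 2. A fit on the 4 libraries of stage II alone called 1 gene in the whole table, which is not among the 53, although 21 of the 53 had an unadjusted edgeR p under 0.05 in it.

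**Figure D2:**
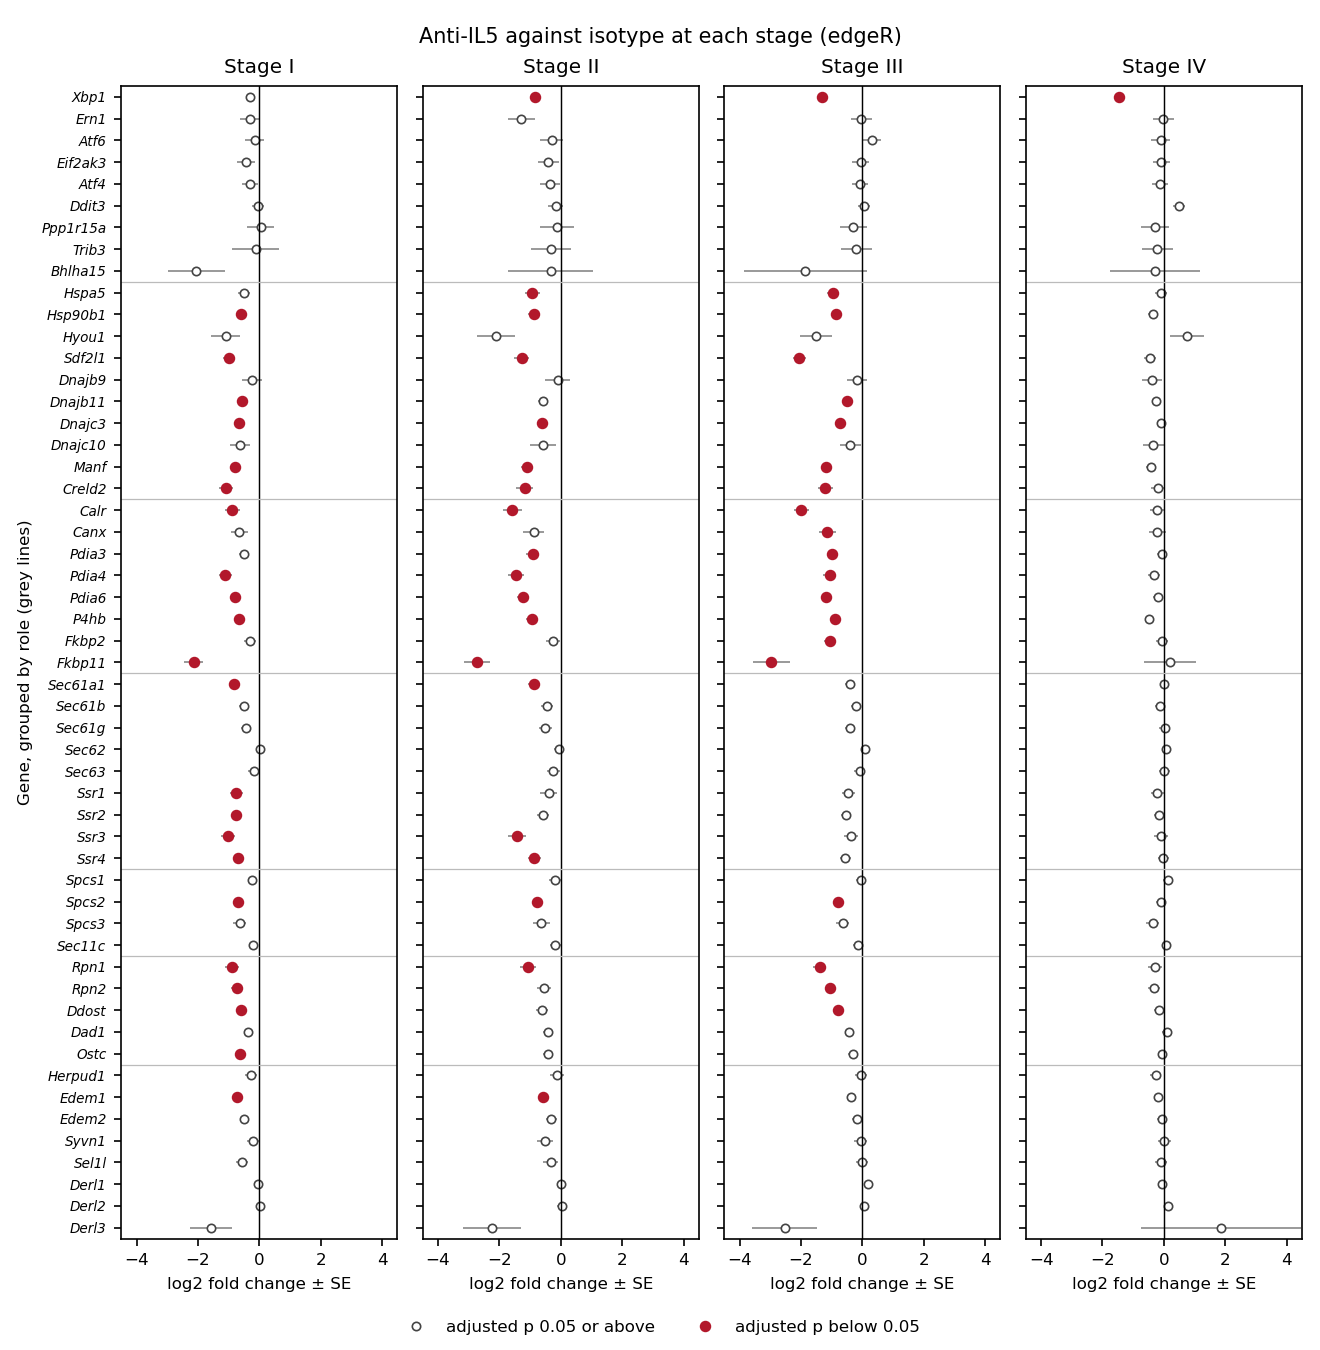
Each point is the log2 fold change of anti-IL5 against isotype for 1 gene at 1 stage with its standard error, filled where the edgeR adjusted p is under 0.05, and grey lines separate the role groups. Filled points number 22, 19, 20 and 1 at stages I to IV and all lie left of 0; the bar of Derl3 at stage IV, where its counts are 0 or 1, runs past the axis.

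Xbp1, which encodes the transcription factor made after IRE1 splicing, was the only sensor or regulator called for treatment. The counts are per gene (mm10 chr11:5520659-5525893, plus strand) and cannot tell spliced from unspliced mRNA. In isotype libraries Xbp1 was at 520, 491 and 518 CPM at stage I, 425 and 352 CPM at stage II, 255, 232 and 290 CPM at stage III and 323, 349 and 353 CPM at stage IV. In anti-IL5 libraries it was at 424, 386 and 430 CPM, then 244 and 193 CPM, then 96.2, 110 and 106 CPM, and last 115, 113 and 146 CPM. Anti-IL5 libraries lay below all isotype libraries at each stage, and the gap widened: the log2 difference was -0.30 (SE 0.13, edgeR adjusted p 0.226) at stage I, -0.83 (0.0135) at stage II, -1.31 (6.01e-06) at stage III and -1.46 (5.94e-06) at stage IV. Between stages III and IV Xbp1 rose in isotype libraries (0.40, edgeR adjusted p 0.024) while 27 of the 53 genes fell. That call held in 2 of the 6 fits that left out 1 library, ending without isotype stage III replicate 1 or 2 or isotype stage IV replicate 2 or 3 (adjusted p up to 0.1), and it ended on plain gene totals (0.30, adjusted p 0.072), without the filter (adjusted p 0.053) and with these groups alone (adjusted p 0.0525). Its level at stage IV was 67.1% of its stage I level with isotype antibody and 30.2% with anti-IL5.

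The sensors themselves showed no called treatment difference, and they took different courses over maturation. Ern1, the IRE1 kinase and RNase, stood at 19.1, 17.6 and 20.5 CPM at isotype stage I and 7.66, 9.93 and 7.02 CPM at isotype stage IV, a fall of log2 -1.21 (SE 0.34, edgeR adjusted p 0.00352). Under anti-IL5 it was at 9.71, 14.6 and 22.1 CPM at stage I and 6.56, 8.90 and 8.81 CPM at stage IV (-0.93, adjusted p 0.0213). At stage II the anti-IL5 libraries (2.93 and 4.92 CPM) lay below the isotype libraries (8.21 and 11.0 CPM) with an adjusted p of 0.171. The libraries of both arms overlapped at the other stages (stage III: 5.22, 7.79 and 5.82 CPM against 6.57, 3.27 and 8.55 CPM).

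Eif2ak3, encoding PERK, which slows translation under ER stress, rose with maturation in both arms. It was at 24.6, 27.9 and 26.5 CPM at isotype stage I, 20.5 and 33.6 CPM at stage II, 24.6, 50.9 and 43.2 CPM at stage III and 56.3, 71.1 and 69.4 CPM at stage IV. In anti-IL5 libraries it was at 26.2, 20.8 and 11.8 CPM, 16.1 and 24.7 CPM, 32.5, 36.1 and 46.8 CPM, and 58.1, 53.7 and 73.5 CPM. The rise from stage I to IV was log2 1.32 (SE 0.28, edgeR adjusted p 0.000299) and 1.66 (SE 0.28, adjusted p 3.16e-05), and the arms overlapped at each stage. Atf6, the sensor that is cleaved in the Golgi, ranged from 8.76 CPM in isotype stage II replicate 1 to 43.6 CPM in isotype stage IV replicate 3. It was at 30.0, 30.2 and 31.8 CPM at isotype stage I and 23.9, 24.2 and 34.6 CPM at anti-IL5 stage I, and its stage IV against stage I difference was 0.18 (SE 0.31) and 0.23 (SE 0.31), not called in either arm.

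Downstream of PERK, Atf4, Ddit3 (CHOP), Ppp1r15a (GADD34, which reverses the translation block) and Trib3 (a pseudokinase induced by ATF4 and CHOP) were not called for treatment at any stage. Atf4 was at 333, 232 and 344 CPM at isotype stage I and 168, 103 and 170 CPM at isotype stage IV (log2 -1.04, SE 0.26, edgeR adjusted p 0.0014), and at 324, 205 and 203 CPM and 154, 117 and 130 CPM under anti-IL5 (-0.87, adjusted p 0.00647). Replicates spread widely, so that Atf4 in isotype stage III ran from 136 to 266 CPM. Ddit3 lay between 26.0 and 70.4 CPM in all 22 libraries. At stage IV its anti-IL5 libraries (70.1, 70.4 and 60.7 CPM) were above its isotype libraries (45.2, 53.4 and 43.6 CPM), with log2 0.50 (SE 0.19) and an adjusted p of 0.354. Ppp1r15a ran from 371 to 1343 CPM with overlap of both arms at each stage.

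Trib3 was nearly undetected at stage I and rose in both arms, against the direction of most called genes of its group. It had 22 counts over the 3 isotype stage I libraries and 586 over the 3 of stage IV (0.296, 1.77 and 0.094 CPM against 15.5, 15.2 and 19.1 CPM), a log2 difference of 4.58 (SE 0.64, edgeR adjusted p 1.83e-06). Under anti-IL5 it had 18 and 448 counts (1.07, 0.761 and 0.097 CPM against 11.0, 16.4 and 15.5 CPM), a difference of 4.49 (SE 0.65, adjusted p 3.61e-06). Bhlha15, encoding MIST1, a factor of professional secretory cells, ran the other way: 520 counts at isotype stage I and 7 at isotype stage IV, a ratio of 105 after scaling to library totals (95% exact counting interval 50.6 to 262). At stage I it was at 19.9, 11.5 and 13.3 CPM in isotype and 4.38, 1.14 and 5.26 CPM in anti-IL5 libraries, with all isotype libraries higher and an edgeR adjusted p of 0.237. Such intervals cover counting error only, since the reads carry no molecular identifiers. The ratios beside them rest on plain gene totals and not on the scaled library sizes used for CPM.

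**Figure D3:**
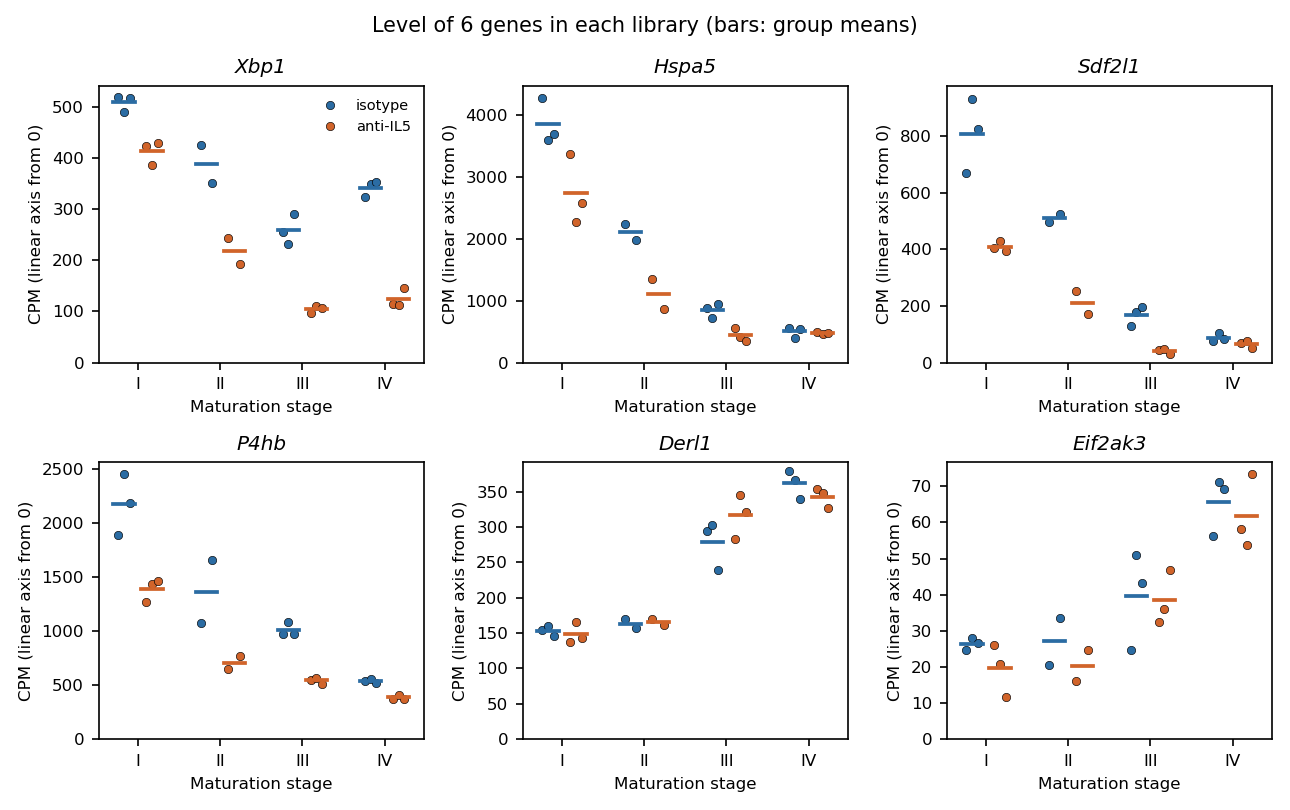
Level of 6 genes in CPM on linear axes from 0, 1 point per library with the group mean as a bar, isotype in blue and anti-IL5 in orange, by stage. Xbp1 stays apart between arms through stage IV, Hspa5 and Sdf2l1 come together at stage IV, P4hb stays lower in the anti-IL5 libraries without a call there, and Derl1 and Eif2ak3 rise in both arms.

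The ER Hsp70 and Hsp90 chaperone cycle held 6 genes called lower under anti-IL5 at stage I, 6 at stage II and 7 at stage III, of 10. Among all genes 1.82%, 1.19% and 5.05% were called lower at these stages. Hspa5, encoding BiP, the ER Hsp70 that also holds the sensors inactive, was at 4273, 3602 and 3692 CPM at isotype stage I, 2245 and 1987 CPM at stage II, 881, 722 and 948 CPM at stage III and 559, 404 and 545 CPM at stage IV. In anti-IL5 libraries it was at 3375, 2264 and 2580 CPM, 1348 and 870 CPM, 559, 411 and 354 CPM, and 496, 456 and 472 CPM. No library overlapped between arms at stages I to III, and at stage IV the anti-IL5 values lay inside the isotype range. The log2 difference was -0.49 (SE 0.19, edgeR adjusted p 0.168) at stage I, -0.93 (0.0483) at stage II and -0.95 (0.00519) at stage III. The stage II call ended in 3 of the 4 fits that left out 1 library of that stage, and the stage III call ended without anti-IL5 replicate 3 (adjusted p 0.0504).

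Hsp90b1, the ER Hsp90 known as GRP94, was at 1765, 2241 and 1810 CPM at isotype stage I and 1228, 1306 and 1301 CPM at anti-IL5 stage I (log2 -0.60, edgeR adjusted p 0.0362). At stage II it was at 1257 and 1886 CPM against 735 and 969 CPM (-0.88, adjusted p 0.024), at stage III at 1178, 1352 and 1033 CPM against 683, 704 and 584 CPM (-0.86, adjusted p 0.00288), and at stage IV at 576, 584 and 482 CPM against 407, 454 and 423 CPM (-0.36, adjusted p 0.485). The anti-IL5 libraries were the lower ones at each stage. Its stage I call held in 1 of the 6 fits that left out 1 library of that stage.

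Sdf2l1, a BiP co-factor that keeps misfolded proteins soluble, had the largest mean treatment effect of the called genes in its group, -1.19 on the log2 scale (SE 0.11, edgeR adjusted p 2.24e-07). Its libraries were at 670, 932 and 826 CPM with isotype antibody and 404, 429 and 393 CPM with anti-IL5 at stage I, 496 and 526 CPM against 253 and 171 CPM at stage II, and 130, 178 and 196 CPM against 44.4, 46.5 and 30.7 CPM at stage III. At stage IV the arms overlapped, with 76.1, 105 and 83.4 CPM against 67.9, 76.2 and 49.8 CPM. The ratio of anti-IL5 to isotype means was 50.5% at stage I, 41.4% at stage II, 24.1% at stage III and 73.3% at stage IV. Manf and Creld2, a pair of secreted ER stress proteins, fell by 0.80 and 1.10 at stage I and by 1.17 and 1.20 at stage III. In the mean over stages 8 of the 10 genes were lower, beside 10.3% of all genes. Dnajb9 and Dnajc10, a pair of ER J-domain co-chaperones, were not called at any stage.

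All 8 lectin chaperones, disulfide isomerases and prolyl isomerases were lower under anti-IL5 at stage III (5.05% of all genes). At stages I and II 5 and 6 of them were lower (1.82% and 1.19% of all genes). P4hb, a protein disulfide isomerase, was at 1891, 2453 and 2186 CPM against 1263, 1432 and 1466 CPM at stage I (log2 -0.65, edgeR adjusted p 0.0129), and at 1072 and 1654 CPM against 647 and 769 CPM at stage II (-0.94, adjusted p 0.011). At stage III it was at 972, 1087 and 969 CPM against 549, 569 and 509 CPM (-0.90, adjusted p 0.000881), and at stage IV at 534, 553 and 517 CPM against 374, 406 and 374 CPM (-0.48, adjusted p 0.172). Its anti-IL5 libraries were lower at each stage, including stage IV, where the difference was not called.

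Pdia3, or ERp57, which works on glycoproteins with the lectin chaperones, was at 1477, 1904 and 1684 CPM against 999.5, 1294 and 1305 CPM at stage I, with an edgeR adjusted p of 0.107. At stage II it was at 1016 and 1420 CPM against 614 and 675 CPM (log2 -0.92, adjusted p 0.0249), and at stage III at 618, 854 and 689 CPM against 355, 427 and 307.8 CPM (-0.99, adjusted p 0.00133). At stage IV its libraries overlapped (374, 413 and 383 CPM against 385, 416 and 319 CPM). Among the others of this group Calr, the calcium-binding lectin calreticulin, fell by 0.87, 1.58 and 1.99 at stages I, II and III, although its isotype stage II libraries stood far apart (623 and 1501 CPM).

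Fkbp11, an ER prolyl isomerase typical of secretory cells, showed the largest treatment effect among the called genes of the 53. At stage I it was at 82.4, 128 and 115 CPM in isotype and 17.8, 24.5 and 31.7 CPM in anti-IL5 libraries, a log2 difference of -2.14 (SE 0.32, edgeR adjusted p 4e-04). At stage II it was at 13.8 and 25.5 CPM against 3.44 and 2.51 CPM (-2.73, adjusted p 0.00276). By counts, Fkbp11 had 3563 at isotype stage I and 6 at isotype stage IV, a ratio of 839 after scaling to library totals (95% exact counting interval 385 to 2290). At stage III its 45 isotype counts stood against 6 anti-IL5 counts, a ratio of 8.76 (3.73 to 25.1), and at stage IV both arms had 6 counts. Without any 1 library of the stage compared, its calls at stages I to III held.

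The translocon genes were lower at stages I (5 of 9) and II (3 of 9), beside 1.82% and 1.19% of all genes. At stage III the smallest edgeR adjusted p among them was 0.0527, with 5 of 9 at an unadjusted p under 0.05, and at stage IV it was 0.899. Sec61a1, the channel itself, was at 413, 437 and 408 CPM against 208, 243 and 267 CPM at stage I (log2 -0.81, edgeR adjusted p 0.00336) and 173 and 279 CPM against 114 and 132 CPM at stage II (-0.88, adjusted p 0.0185). At stage III it was at 204, 206 and 180 CPM against 133, 174 and 137 CPM (-0.41, adjusted p 0.112), and at stage IV at 164, 174 and 163 CPM against 163, 166 and 175 CPM. The arms were separate at stages I to III and overlapped at stage IV.

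Ssr2 and Ssr3 encode subunits of TRAP, the complex beside the channel that helps some chains to enter. Ssr3 was at 322, 407 and 357 CPM against 146, 187 and 203 CPM at stage I (log2 -1.02, edgeR adjusted p 0.0116) and at 97.1 and 241 CPM against 49.8 and 75.2 CPM at stage II (-1.43, adjusted p 0.0135), and at 91.8, 90.6 and 91.8 CPM against 69.2, 71.6 and 69.7 CPM at stage III, with no overlap at any of them. Ssr2 was at 369, 599 and 535 CPM against 270, 293.6 and 330 CPM at stage I (-0.75, adjusted p 0.00853) and ended at 78.6, 84.0 and 87.8 CPM against 85.3, 68.8 and 71.6 CPM at stage IV. Sec62, an accessory factor for entry after translation that also serves ER turnover, took the opposite course, from 115, 121 and 101 CPM at isotype stage I to 140, 154 and 130 CPM at stage IV (0.33, SE 0.12, adjusted p 0.0241). Its rise was 0.38 (adjusted p 0.0111) under anti-IL5. On plain gene totals both differences of Sec62 turn negative, at -0.09 and -0.04.

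Of the signal peptidase genes, Spcs2 was lower at stages I to III (1.82%, 1.19% and 5.05% of all genes) and Spcs1, Spcs3 and Sec11c were called at no stage. Spcs2, an accessory subunit, was at 796, 1107 and 976 CPM against 552, 608 and 606 CPM at stage I (log2 -0.70, edgeR adjusted p 0.00429), 800 and 774 CPM against 534 and 382 CPM at stage II, and 400, 478 and 428 CPM against 265, 256 and 234 CPM at stage III (-0.79, adjusted p 0.00138). At stage IV the values were 267, 267 and 271 CPM against 257, 246 and 246 CPM, without overlap but 0.10 apart and not called. Sec11c, a catalytic subunit, was at 502, 632 and 660 CPM against 560, 510 and 500 CPM at stage I, where its difference was -0.19 (SE 0.15, adjusted p 0.549). At isotype stage IV it was at 334, 331 and 399 CPM, a fall of -0.75 from stage I.

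All 5 oligosaccharyltransferase genes were lower in the mean over stages (10.3% of all genes). Of them 4 were lower at stage I, 1 at stage II and 3 at stage III, beside 1.82%, 1.19% and 5.05% of all genes. Rpn1, ribophorin I, was at 813, 1014 and 1017 CPM against 439, 518 and 577 CPM at stage I (log2 -0.89, edgeR adjusted p 0.021), 438 and 663 CPM against 260 and 260 CPM at stage II (-1.08, adjusted p 0.0387), and 213, 317 and 286 CPM against 110, 110 and 91.9 CPM at stage III (-1.39, adjusted p 0.000617). At stage IV it was at 63.0, 125 and 81.7 CPM against 61.2, 89.9 and 69.0 CPM, and the arms overlapped. Ddost, another subunit that holds the complex together, was at 991, 1382 and 1415 CPM against 734, 838 and 924 CPM at stage I (-0.60, adjusted p 0.0357) and at 348, 409 and 477 CPM against 238, 254 and 221 CPM at stage III (-0.79, adjusted p 0.00467). The stage I calls of both genes held in 2 of the 6 fits that left out 1 library of that stage.

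In ER-associated degradation 1 of 8 genes, Edem1, was called for treatment at single stages, at stages I and II (1.82% and 1.19% of all genes called lower). Edem1, a mannosidase-like protein that marks misfolded glycoproteins, was at 475, 527 and 500 CPM against 314.9, 305.9 and 285 CPM at stage I (log2 -0.73, SE 0.12, edgeR adjusted p 0.00077). At stage II it was at 371 and 414 CPM against 280 and 247 CPM (-0.58, adjusted p 0.0388), and at stage IV at 300, 253 and 253 CPM against 238, 223 and 244 CPM. Its anti-IL5 libraries were the lower ones at each stage. Edem2, of the same family, was lower in the mean over stages and was among the genes that fell from stage II to III in both arms (-0.56 and -0.43).

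Herpud1, a membrane scaffold of the degradation complex, was the second most abundant gene of the 53 per kilobase at isotype stage IV. It was at 509, 432 and 527 CPM at isotype stage I and 487, 547 and 506 CPM at isotype stage IV, a log2 difference of 0.07 (SE 0.18). Under anti-IL5 it was at 478, 389 and 353 CPM and 445, 410 and 426 CPM, and its treatment differences ran from -0.27 to -0.04 with none called. Derl1, a derlin of the retrotranslocation channel, rose in both arms, from 154, 160 and 146 CPM to 379, 366 and 339 CPM with isotype antibody (1.24, SE 0.12, edgeR adjusted p 1.4e-08) and from 138, 166 and 143 CPM to 354, 348 and 327 CPM with anti-IL5 (1.20, SE 0.12, adjusted p 2.71e-08). Sel1l, the partner of the ubiquitin ligase Syvn1, rose under anti-IL5 from 96.3, 102 and 114 CPM to 173, 168 and 176 CPM (0.72, adjusted p 0.00392), while its isotype libraries overlapped between these stages (188, 146 and 127 CPM and 189, 201 and 157 CPM). Derl2 fell from stage II to III in both arms, by 0.44 with isotype antibody (adjusted p 0.0204) and by 0.42 with anti-IL5 (adjusted p 0.0236).

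Derl3, the derlin of professional secretory cells, was at its highest at stage I in both arms. It had 1183 counts at isotype stage I (32.3, 48.6 and 26.3 CPM), 143 at stage II, 46 at stage III and 0 at stage IV. Against 3 counts over the group and on plain gene totals, it was at least 557-fold higher at stage I than at stage IV. This bound is lower on the scaled library sizes, whose factors were 1.16 to 1.23 at isotype stage I and 0.879 to 0.893 at stage IV. Under anti-IL5 Derl3 had 347, 33, 8 and 1 counts. At stage I the anti-IL5 libraries (14.0, 10.5 and 11.6 CPM) were all below the isotype libraries, a ratio of 2.98 after scaling to library totals (95% exact counting interval 2.64 to 3.37), with an edgeR adjusted p of 0.236.

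Compared per kilobase of exon, so that genes can be ranked, the most abundant of the 53 genes at isotype stage I were Calr (944 CPM per kb), Hspa5 (912), P4hb (761), Sdf2l1 (730) and Ddost (596). At isotype stage IV they were Ppp1r15a, then Herpud1 (220 CPM per kb) and P4hb (187). Xbp1 ranked 20 at stage I, with 157 CPM per kb, and 9 at stage IV, with 105 CPM per kb. Folding factors led at the first stage, and a stress phosphatase subunit and a degradation scaffold at the last.

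The treatment effect itself differed between stages for a few genes. For Xbp1 it was larger at stage III than at stage I, by log2 -1.01 (SE 0.19, edgeR adjusted p 0.0202), where 0.363% of all genes had a significantly more negative and 0.0323% a more positive effect. For Sdf2l1, Calr and Pdia6 it shrank from stage III to stage IV, by 1.60 (SE 0.29, adjusted p 0.0142), 1.77 (SE 0.34, adjusted p 0.0155) and 0.99 (SE 0.23, adjusted p 0.0451), beside 0.0969% and 0.541% of all genes. Calr was at 389, 420 and 592 CPM against 111, 136 and 107 CPM at stage III, and at 148, 123 and 118 CPM against 101, 118 and 115 CPM at stage IV. Over all stages Xbp1 (adjusted p 0.00763), Sdf2l1 (0.028) and Calr (0.0345) had a stage by treatment interaction, beside 1.07% of all genes. Of these, only Xbp1 kept its interaction call whichever library was left out. The count was 1 without isotype stage I replicate 3, isotype stage III replicate 3 or isotype stage IV replicate 3, and 1 without anti-IL5 stage I replicate 2, stage III replicate 3 or stage IV replicate 2, while without isotype stage II replicate 1 it was 8. The Pdia6 call between stages III and IV held in 1 of 12 such fits. The Xbp1 call between stages I and III was lost without isotype stage I replicate 2, isotype stage III replicate 3 or anti-IL5 stage I replicate 1, and also without anti-IL5 stage III replicate 1 or 3, and without anti-IL5 stage III replicate 3 only 1 of the 3 calls between stages III and IV was left.

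Set beside the next isotype stage, anti-IL5 cells of stage I differed from isotype stage II in 1 called gene. Trib3 was called lower in anti-IL5 stage I (log2 -3.56, SE 0.69, edgeR adjusted p 0.00568) and the other 52 genes were not called, where 1.61% of all genes were lower and 0.718% higher. The Hspa5 difference was 0.37 (SE 0.22), that of P4hb 0.03 (SE 0.16) and that of Rpn1 -0.11 (SE 0.24). Anti-IL5 stage III against isotype stage IV gave 5 lower genes, Xbp1 (-1.71), Sdf2l1 (-1.12), Eif2ak3 (-0.77), Pdia4 (-0.71) and Pdia6 (-0.60), and 1 higher gene, Sec61g (0.55), beside 11.9% and 13.4% of all genes. Without isotype stage II replicate 2, the first of these comparisons gave 2 lower and 5 higher genes.

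The promoters of these genes were searched for the sites through which XBP1 and ATF6 are known to act. The genes were chosen by name as pathway genes, so shares above those of all promoters may come from that choice alone. Such shares say nothing on the effect of anti-IL5. RefSeq promoters (GRCm38.p6) matched 44 of the 53 genes. In the 250 bases before the start, the ER stress response element, CCAAT followed after any 9 bases by CCACG on either strand, was present in 9 of the 44 (20.5%) and in 35 of 27025 promoters of all genes (0.13%). It contains CCAAT and CCACG, which alone were present in 72.7% and 61.4% of the 44 promoters and in 37.5% and 31.0% of all promoters. The second type of element, ATTGG followed after any 1 base by CCACG, was present in Herpud1 alone and in 0.037% of all promoters. The UPR element TGACGTGG was in none of the 44 and in 0.603% of all promoters, and TGATGNAAN, a form of the C/EBP-ATF response element, in 2.27% and 3.89%. The elements found in 5 of the 11 genes lower at stages I to III that had a promoter in the table, which leaves out Manf, and in Hspa5, with Herpud1, which was not called for treatment, beside them, are shown 5′ to 3′ on the strand that carries them, with the element in capitals and 5 flanking bases on each side.
Hspa5, chr2:34772020-34772048, plus strand: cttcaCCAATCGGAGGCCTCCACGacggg
Hsp90b1, chr10:86705633-86705661, minus strand: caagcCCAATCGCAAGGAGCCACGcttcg
Hsp90b1, chr10:86705528-86705556, plus strand: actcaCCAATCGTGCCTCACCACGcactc
Calr, chr8:84847070-84847098, plus strand: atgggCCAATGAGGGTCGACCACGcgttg
Pdia6, chr12:17266486-17266514, plus strand: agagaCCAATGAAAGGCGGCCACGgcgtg
Creld2, chr15:88819515-88819543, minus strand: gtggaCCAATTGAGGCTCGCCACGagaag
Dnajc3, chr14:118937822-118937850, plus strand: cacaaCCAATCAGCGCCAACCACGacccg
Herpud1, chr8:94386372-94386392, plus strand: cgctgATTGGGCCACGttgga

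The Hspa5 promoter is shown whole over the 250 bases before its start (chr2:34771840-34772089, plus strand), since it holds the element 47 to 65 bases before the start and further CCAAT letters upstream of it.
Hspa5: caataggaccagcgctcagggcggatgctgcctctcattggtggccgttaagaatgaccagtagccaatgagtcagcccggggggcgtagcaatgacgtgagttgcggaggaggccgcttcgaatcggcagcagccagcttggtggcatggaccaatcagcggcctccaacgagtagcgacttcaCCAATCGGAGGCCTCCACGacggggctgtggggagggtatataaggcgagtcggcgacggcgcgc

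The 9 genes with the element were Hspa5, Hsp90b1, Dnajc3, Creld2, Calr, Canx, Pdia6, Syvn1 and Derl3. Of these 9, anti-IL5 lowered 5 at stage I, 6 at stage II and 7 at stage III, with medians of log2 -0.67, -0.93 and -1.15. Of the 35 genes with a promoter but without the element, 13, 11 and 12 were lower, with medians of -0.49, -0.46 and -0.39. Among all tested genes, 1.82%, 1.19% and 5.05% were called lower at these stages. At stage IV the medians were -0.20 and -0.12. Elsewhere in the genome, 10 other tested genes carried the element. At stage I the smallest edgeR adjusted p among them was 0.0905, that of Pan2, which was higher (log2 0.63, SE 0.21). Another 3 were lower at an unadjusted p under 0.05. At stage III 1 of the 10 was called, and it was higher (1.32% of all genes). In the mean over stages 1 of the 10 was lower, Alg12 (-0.46), and 1 higher, Pan2 (0.48), beside 10.3% and 8.6% of all genes. A letter match is a description of these windows and not a measured binding site.

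Other genes of the pathway, from lists of further steps, were lower under anti-IL5 in part; the counts here are for the mean over stages, in which 10.3% of all genes were called lower and 8.6% higher. Together with 23 targets of ATF4 and the integrated stress response, the lists hold 148 genes, of which 147 were tested, 56 were lower and 1 was higher, a smaller share than the 33 of 53. The 53 genes and the further lists were chosen with earlier results of these data known, so these shares describe the chosen lists only. Of 19 genes for targeting and entry 8 were lower, led by Krtcap2 (log2 -0.87) and Magt1 (-0.59), both linked to glycan transfer, and of 21 tested genes for further folding and glycan trimming 9 were lower, led by Ppib (-0.66), a prolyl isomerase, and Txndc5 (-0.62), a disulfide isomerase. Of 21 genes for dolichol-linked glycan synthesis 5 were lower, led by the transferases Alg8 (-1.03) and Alg2 (-0.64), and of 16 further degradation genes 3, led by Selenos (-0.54) and Ngly1 (-0.48), counts that stand closest to the share of all genes. Of 7 genes of UFM1 conjugation, a ubiquitin-like system at the ER, 3 were lower, among them Ufsp2 (-0.45).

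Genes of vesicle traffic out of the ER and back were lower in part, in the same mean over stages and beside the same 10.3% and 8.6% of all genes. Of 22 COPII and ER exit genes 8 were lower, with Sec24d, a cargo adaptor, at -1.24 (SE 0.14, edgeR adjusted p 3.48e-06) and Lman1, a lectin cargo receptor, at -0.92 (SE 0.10), and 1, the SNARE gene Stx5a, was higher at 0.29. Of 18 COPI and retrograde genes 8 were lower, led by Kdelr3 (-3.58, SE 0.38, adjusted p 2.11e-06) and Kdelr2 (-0.68), receptors that return KDEL-bearing chaperones such as BiP to the ER. Kdelr3 was at 5.03, 8.95 and 8.77 CPM at isotype stage I against 0.711, 1.05 and 0.487 CPM with anti-IL5, and at 7.38, 12.2 and 11.1 CPM at isotype stage III against 0, 0 and 0.445 CPM. Its isotype libraries were at 0.766 to 2.65 CPM at stage IV, below all isotype libraries of the earlier stages.

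The transcripts of the granule proteins, which are made through this machinery, were high through stage III. The summed level of 7 granule protein genes, Prg2, Prg3, Epx, Ear1, Ear2, Ear6 and Ear10, was 47150 CPM at isotype stage I, 53900 CPM at stage II, 37660 CPM at stage III and 2798 CPM at stage IV. Under anti-IL5 it was 46610, 41890, 20350 and 880 CPM. The smallest edgeR adjusted p of a granule gene was 0.635 at stage I and 0.514 at stage II, while 2 of 7 were lower at stage III and 3 of 7 at stage IV, beside 5.05% and 0.864% of all genes. At stage I the summed granule level of the anti-IL5 libraries (42400 to 51250 CPM) covered that of the isotype libraries (42410 to 49690 CPM), whereas the sums of the 53 genes did not overlap. The Ear genes are near-identical copies between which reads may be split.

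**Figure D4:**
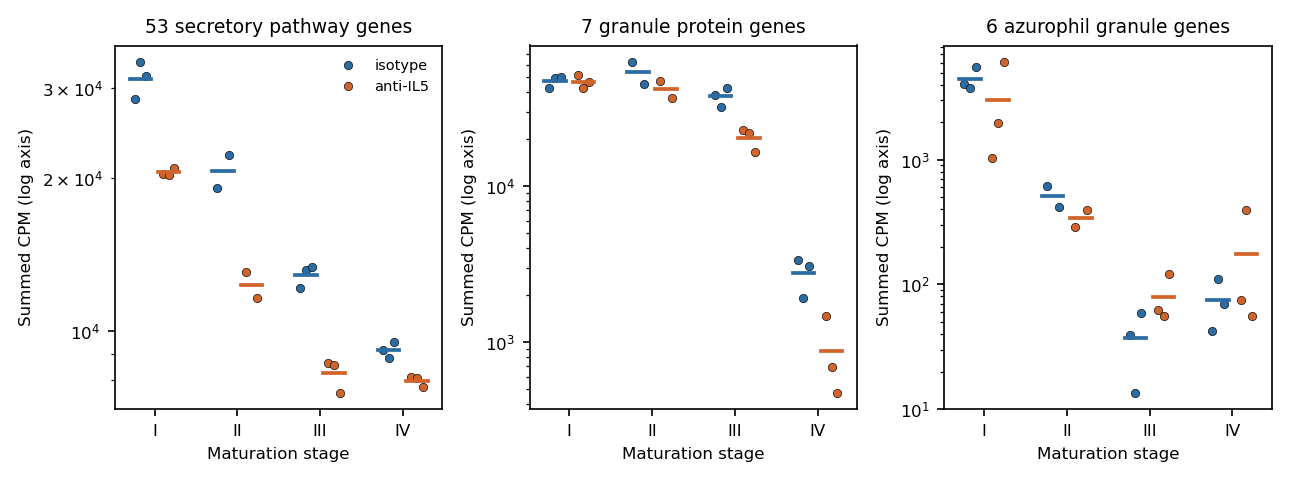
Summed CPM on log axes of the 53 secretory pathway genes, of 7 granule protein genes and of 6 azurophil granule genes, 1 point per library with the group mean as a bar, isotype in blue and anti-IL5 in orange. The secretory sums separate by treatment at each stage and the granule sums from stage III on. The azurophil sums overlap at stage I, where 1 anti-IL5 library is the highest, and lie apart at stage II, lower with anti-IL5.

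Genes of other cell types were present and in part moved with the groups. Azurophil granule genes of early neutrophils (6 genes, Mpo and Elane among them) summed to 3743 to 5576 CPM at isotype stage I and 1025 to 6078 CPM at anti-IL5 stage I, where the smallest edgeR adjusted p of the 6 was 0.484. By replicate, the anti-IL5 stage I azurophil sums were 1025, 1983 and 6078 CPM, beside secretory sums of 20320, 20220 and 20910 CPM. The isotype stage I azurophil sums were 4022, 3743 and 5576 CPM, beside secretory sums of 28560, 33750 and 31610 CPM. At stage II the azurophil sums were 617.1 and 414.7 CPM with isotype antibody against 286.1 and 391.8 CPM with anti-IL5, without overlap. Basophil and mast cell genes summed to 586.1 and 390.9 CPM against 229.9 and 341.9 CPM at stage II, also without overlap. They summed to 205 to 581 CPM at isotype stage III and 52.2 to 83.3 CPM at anti-IL5 stage III, with 3 of 6 tested genes lower (5.05% of all genes) and Mcpt4 and Tpsb2 at 0 in all libraries. Plasma cell and B lineage genes summed to 35.6 to 49.7 CPM at isotype stage I and 70.7 to 114 CPM at anti-IL5 stage I, with 1 of 7 tested genes higher (2.61% of all genes). Of their defining genes, Pax5 was at 0 in 20 libraries, Tnfrsf17 in 19 and Sdc1 in 15. Mature neutrophil genes summed to at most 2865 CPM at isotype and 1992 to 5421 CPM at anti-IL5 stage I, and to 5311 to 8219 CPM and 7517 to 9229 CPM at stage III, with overlap. They did not overlap at stage II (5355 and 3886 CPM against 5929 and 6304 CPM) or stage IV (1494 to 1940 CPM against 2563 to 3782 CPM). Of the 10 genes, 1 was called higher at stage III and 2 at stage IV, beside 1.32% and 0.186% of all genes. Progenitor genes summed to 32.5 to 37.3 CPM at isotype and 63.8 to 70.2 CPM at anti-IL5 stage III, with all anti-IL5 libraries higher, and overlapped at the other stages. The part of these cell types in the treatment results was not tested.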

How the data were processed

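Libraries were prepared with SMART-Seq v4, which keeps no strand information, using 17 cycles of cDNA amplification, and Nextera XT, per the labels' protocols. The submitters' processing notes name STAR 2.6.1a, the genome build mm10 and, with no role, DESeq2. How reads were counted, against which annotation and strand, and how pseudogene copies were handled is not given in the sources used here. Raw counts per gene symbol are the unit of the deposited files. Counts tied to no feature (12.65% to 22.1% of a file's total) and ambiguous ones (1.86% to 2.39%) were left out of library sizes and tests. Without strand, reads of overlapping genes cannot be told apart; 14 of the 53 genes overlap an exon of another counted gene, most of all Spcs1 (16.3% of its exon length) and Hsp90b1 (10.3%).

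A quasi-likelihood model (glmQLFit, robust) of edgeR 4.0.16 in R 4.3.3 took all 22 libraries in 8 groups of stage and treatment, with library sizes scaled by TMM (factors 0.85 to 1.23) and filterByExpr, which kept 12387 of 16619 genes with a count. Adjusted p-values are Benjamini-Hochberg over all 12387 genes at 0.05. The deposited counts gave the CPM and fold changes. Genes of known change were simulated, 100 at each of 2 sizes, among 12153 tested. In the stage I comparison a log2 difference of 1 was recovered for 62 genes and of 2 for 97, beside 12 false calls. In the stage II comparison these were 45 and 92 genes, beside 3 false calls. The simulation drew independent replicates, gave each gene the spread usual at its abundance and changed no scarce gene. Recovery and false calls in the real libraries may therefore differ. Alternatives were median-of-ratios scaling, plain gene totals, no filter, limma-voom (limma 3.58.1), DESeq2 1.42.0, a replicate block, only the compared groups, and leaving out each library. The members, role groups, further lists and the rule for named genes were chosen with earlier results of these data known. The rule names the sensors and Atf4 and Ddit3, in each other role group the 2 most abundant genes and the called gene with the largest mean effect, Bhlha15 and Derl3, genes that ran against their group, and up to 2 called genes of each further list, of which 1 is not reported here; other genes of the 53 named beside them are examples given by range and count. Promoter sequences are from RefSeq and gene positions from GENCODE on GRCm38. Counting intervals for low genes are 95% exact (Clopper-Pearson).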

Additional observations from a re-analysis of the deposited data

Results flagged for a closer look

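For 3 genes the effect of anti-IL5 differed between stages over the whole series, tested as a stage by treatment interaction in edgeR: Xbp1 (adjusted p 0.00763), Sdf2l1 (adjusted p 0.028) and Calr (adjusted p 0.0345). For Xbp1 the effect was more negative at stage III than at stage I (adjusted p 0.0202), and its libraries were lower with anti-IL5 in 3 of 3 at both stages. For Sdf2l1 (adjusted p 0.0142), Calr (adjusted p 0.0155) and Pdia6 (adjusted p 0.0451) the effect was closer to 0 at stage IV than at stage III. Groups of 2 or 3 libraries are too small for a search for single outlying libraries.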

How the results depend on the processing

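Counts of the 53 genes called by edgeR kept their direction in the treatment comparisons at each stage and in the mean under median-of-ratios scaling, plain gene totals, no filter, limma-voom and DESeq2, with 20 to 26 at stage I, 17 to 21 at stage II, 19 to 26 at stage III, 1 to 2 at stage IV and 32 to 34 in the mean. DESeq2 called 2 genes at stage IV, 2 for stage III minus I, 8 for stage IV minus III and 11 for the interaction. With only the compared groups fitted, none was called at stage II (21 at an unadjusted p under 0.05) or between anti-IL5 stage I and isotype stage II (3 unadjusted), 7 between isotype stages I and II, 11 between anti-IL5 stages III and IV, and 10 between anti-IL5 stage III and isotype stage IV. With a replicate block, 6 were called for stage IV minus III and 5 for the interaction, and the block moved no other count by over 1.5 times. The labels do not say what the replicate numbers mark, and the main tests treated libraries as independent. Across stages, same-numbered libraries deviated together by 0.023 to 0.208 (30 pairs, median 0.1125, 16 over 0.1). The median of 60 differently numbered pairs was -0.049. Between treatments the same-numbered range was 0.013 to 0.338 (11 pairs, 2 over 0.1), and the median of 20 differently numbered pairs was -0.0325. Both pairs over 0.1 are of stage II and share the value 0.338, since deviations from a mean of 2 libraries mirror each other. Taking deviations from group means also pushes differently numbered pairs to negative values where same-numbered pairs are positive, so the 2 kinds of pair are not independent. Across stages, 21 of 22 libraries correlated best with their own number. What same-numbered libraries share was not tested, and any sharing would make the p-values of the main tests inexact.

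Leaving out 1 library gave 9 to 24 genes at stage I, 4 to 18 at stage II, 17 to 22 at stage III, 1 to 1 at stage IV and 32 to 35 in the mean. The isotype steps gave 3 to 25, 24 to 32 and 25 to 28, with 44 to 45 from stage I to IV, and the anti-IL5 steps 14 to 23, 20 to 30 and 3 to 5, with 42 to 44. Anti-IL5 stage I against isotype stage II gave 0 to 7 and anti-IL5 stage III against isotype stage IV 3 to 6. Stage III minus I gave 0 to 1, stage IV minus III 1 to 3 and the interaction 1 to 8. More genes were higher than lower without isotype stage II replicate 2 (7 genes, 5 higher) and without anti-IL5 stage IV replicate 3 (3 genes of anti-IL5 stage IV against III, 2 higher). On plain gene totals the Ddit3 difference at stage III was -0.017, and the stage IV against I difference of Sec62 -0.088 with isotype antibody and -0.042 with anti-IL5. Uncalled treatment differences changed sign without 1 library: at stage I for Ddit3 (-0.25 to 0.111), at stage II for Atf6 (-0.911 to 0.96), at stage III for Ern1 (-0.356 to 0.264), Eif2ak3 (-0.294 to 0.179), Atf4 (-0.343 to 0.169) and Ddit3 (-0.118 to 0.292), at stage IV for Ern1 (-0.119 to 0.142), Atf6 (-0.258 to 0.096) and Eif2ak3 (-0.232 to 0.005), and in the mean for Atf6 (-0.213 to 0.253). Of the 22 genes called at stage I, 9 were called without any 1 library, of 19 at stage II 2, of 20 at stage III 17, and of 33 in the mean 31. The cause of these changes was not tested. Depth limits Derl3, Bhlha15, Fkbp11 and Trib3, which have under 60 counts in some groups.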

Other observations

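Targets of ATF4 and of the integrated stress response, which covers amino acid synthesis and transport and tRNA charging, were lower with anti-IL5 in 12 of 23 tested genes in the mean over stages, where 10.3% of all genes were called lower and 8.6% higher, while Atf4 itself was not called (log2 -0.22, SE 0.14, edgeR adjusted p 0.302). Vldlr (-1.76, adjusted p 0.035) and Slc7a5, an amino acid transporter (-1.54, adjusted p 0.000115), had the largest effects among those called. Asns, asparagine synthetase, had a mean of 28.7 CPM at isotype stage I and 10.9 CPM at anti-IL5 stage I, and 15.7 CPM against 6.00 CPM at stage III (mean effect -1.34, adjusted p 0.000302). Phgdh, the first enzyme of serine synthesis, had 187 CPM against 63.6 CPM at stage I and 60.1 CPM against 6.63 CPM at stage II (mean effect -1.51, adjusted p 0.00679). These 2 genes were named after their values were seen.

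Chaperones of the cytosol and mitochondria, outside the ER, were lower in 14 of 20 tested genes in the mean over stages, beside 10.3% of all genes called lower. Hspa1b (-2.68, adjusted p 0.00233) and Hspa1a (-1.69, adjusted p 0.00608), near-identical inducible Hsp70 genes between which reads may be split, had the largest effects, and Hspe1, a mitochondrial co-chaperonin named after its value was seen, was lower by -1.06 (adjusted p 3.27e-06). At stage I 9 of the 20 were lower, beside 1.82% of all genes.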
